A study of Mus musculus with 426 samples.

Results

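EpCAM+ cells of a mouse pancreatic tumour were set against the CD45+ leukocytes of the same tumours, first in their RNA and then in their DNA coverage. The EpCAM+ cells were the single-cell libraries sorted from the primary tumour by the epithelial surface protein EpCAM without a stated gate on green fluorescent protein (GFP), and there were 28 of them among the 420 single cells and 426 samples of the series. They came from 3 mice (11 cells of mouse 1, 9 of mouse 2 and 8 of mouse 3). The 58 CD45+ cells came from the same 3 mice (22, 20 and 16 cells), and CD45 is the surface phosphatase carried by all leukocytes. Bulk libraries were left out.

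Every tumour had grown for 6 to 8 weeks from 50000 cells of KPC1199-EGFP, which is a GFP-labelled line from mouse pancreatic cancer, injected into the pancreas of C57Bl/6 males aged 6 to 8 weeks, so the host's own leukocytes and healthy pancreas were present beside the graft. The line is a single implanted line, and the labels call the EpCAM+ cells tumour and the CD45+ cells stromal. GTO sequences the transcripts and the genome of each sorted cell together. The mouse was the replicate, with 3 mice on each side, and both gates came from the same animals.

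EpCAM is a homophilic adhesion protein of simple epithelia, and such cells build their intermediate filaments from keratins, seal their borders with junction proteins and coat their free surface with mucins. Leukocytes lack these structures and carry instead haematopoietic signalling proteins, phagocytic and antigen receptors and, in myeloid cells, lysosomal enzymes. In KPC-type tumour cells, which descend from pancreatic epithelium, gains and losses of whole chromosomes are common, whereas leukocytes of a healthy host are near diploid.

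A cell's RNA was used if it showed 500 genes or more and reached 10000 counts, which kept 25 EpCAM+ cells (11, 8 and 6 in mice 1, 2 and 3) and 56 CD45+ cells (22, 20 and 14). The EpCAM+ cells nearest to that limit had 13906 counts inside it and 3289 outside it, and the other 2 left out had 18 and 4 counts. Kept EpCAM+ cells had a median of 1027944 RNA counts and kept CD45+ cells 784903. Summing the kept cells of each gate within a mouse gave 25939179, 15465692 and 8346146 counts in the EpCAM+ sums and 20887402, 35909185 and 18182127 in the CD45+ sums. A single cell gave 63.2% of the EpCAM+ sum of mouse 2 and 48.7% of that of mouse 3. Levels below are counts scaled to a total of 1e+06 (CPM) in these sums.

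Genomic reads may have reached the RNA values, which was not tested. Olfactory receptor genes, which neither cell type is known to use, were detected at a median of 254 genes per EpCAM+ cell and 277 per CD45+ cell, of 1107. Over the 81 kept cells the log of their counts followed the log of the cell's DNA reads with r = 0.951 and the log of its RNA counts with r = 0.221, a description over cells that share libraries. DNA reads per RNA count had a median of 0.318 in EpCAM+ cells and 0.834 in CD45+ cells. By mouse the medians were 0.241, 0.330 and 0.905 in EpCAM+ cells and 2.42, 0.237 and 0.635 in CD45+ cells. The ratio was thus higher in CD45+ cells in mouse 1 only, and higher in EpCAM+ cells in mice 2 and 3. Low counts of a gene in the gate that should lack it are therefore read against this background.

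4 cells stood apart from their gate, and some results that rest on them are given with and without them. EpCAM+ cell 3 of mouse 1 and cell 42 of mouse 3 had DNA coverage by chromosome like that of CD45+ cells. That cell 3 had the highest Epcam level of its gate (6917 CPM, 27.2% of the gate's Epcam counts). That cell 42 had the highest level in its gate of Lyz2, a myeloid gene (1894 CPM, 22.9% of the gate's Lyz2 counts). CD45+ cell 80 of mouse 3 had coverage like that of the GFP+EpCAM+ gate and 0 reads in the Y bins. CD45+ cell 30 of mouse 2 held 28768 CPM of keratin RNA beside pan-leukocyte RNA. These cells were picked after their values were seen.

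The sort antigens came out on the side of their gates. Epcam stood at 1679, 1047 and 427 CPM in EpCAM+ cells of mice 1, 2 and 3, against 9.53, 70.6 and 16.9 CPM in CD45+ cells. All EpCAM+ sums lay above all CD45+ sums, but the log2 difference of 4.50 (SE 1.24) did not pass the test, with an adjusted p of 0.0734 in edgeR's quasi-likelihood fit. CD45+ cell 30 of mouse 2 held 76.0% of the Epcam counts of its gate, and without that cell the log2 difference was 6.23 (adjusted p = 0.00981). Because the cell was picked after its keratin RNA was seen, the values without it are a description. Ptprc, which encodes CD45, stood at 1.27, 1.42 and 4.07 CPM in EpCAM+ cells and 378, 160 and 461 CPM in CD45+ cells. It was lower in EpCAM+ cells in 3 of 3 mice (log2 difference -7.29, SE 1.82, adjusted p = 0.0484).

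When every cell was thinned to 10000 counts, Epcam was seen in 14 of 25 EpCAM+ cells (56%) and 11 of 56 CD45+ cells (19.6%). Before thinning those shares were 96% and 64.3%. Over mice the thinned share was 53.2 ± 17.2% in EpCAM+ cells and 17.3 ± 16.1% in CD45+ cells (SD, n = 3 mice each; exact permutation test, two-sided p = 0.1, the smallest that 3 against 3 mice allow). The thinned share for Ptprc was 9.72 ± 8.67% in EpCAM+ cells and 44.5 ± 14% in CD45+ cells (same exact test, p = 0.1). At the same thinning the median olfactory receptor gene was seen in 0.0% of EpCAM+ cells and 1.79% of CD45+ cells, and the most often seen one in 16% and 14.3%. The share of CD45+ cells with Epcam, at 19.6%, was above that of every olfactory receptor gene in that gate. By mouse Epcam was seen in 7 of 22, 4 of 20 and 0 of 14 CD45+ cells. The olfactory receptor genes were not matched to Epcam in length, and the difference was not tested.

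The promoters of both sort antigens and of 2 myeloid genes that fell are printed here because they set the gates' genes side by side. Each is a RefSeq window of build GRCm38.p6 from 250 bases before to 50 bases after the gene's start, and the capitals mark AGGAAGT, the core bound by the myeloid and lymphoid factor PU.1 (product of Spi1), or TGTGGTT, the core bound by Runx factors, on either strand. No 2 of the marked matches overlapped.
Epcam (chr17:87635729-87636028, + strand): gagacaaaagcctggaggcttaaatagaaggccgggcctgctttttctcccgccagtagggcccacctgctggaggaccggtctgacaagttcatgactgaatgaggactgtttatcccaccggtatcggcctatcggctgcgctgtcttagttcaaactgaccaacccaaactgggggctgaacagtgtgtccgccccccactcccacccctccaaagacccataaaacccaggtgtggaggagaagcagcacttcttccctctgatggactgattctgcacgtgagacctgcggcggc
Ptprc (chr1:138175256-138175555, - strand): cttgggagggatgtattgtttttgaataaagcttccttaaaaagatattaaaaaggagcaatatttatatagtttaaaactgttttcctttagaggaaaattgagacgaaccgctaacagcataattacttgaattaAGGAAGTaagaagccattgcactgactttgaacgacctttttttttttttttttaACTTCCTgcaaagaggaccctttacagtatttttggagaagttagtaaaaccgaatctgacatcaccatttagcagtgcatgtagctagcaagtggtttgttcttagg
Lyz2 (chr10:117282223-117282522, - strand): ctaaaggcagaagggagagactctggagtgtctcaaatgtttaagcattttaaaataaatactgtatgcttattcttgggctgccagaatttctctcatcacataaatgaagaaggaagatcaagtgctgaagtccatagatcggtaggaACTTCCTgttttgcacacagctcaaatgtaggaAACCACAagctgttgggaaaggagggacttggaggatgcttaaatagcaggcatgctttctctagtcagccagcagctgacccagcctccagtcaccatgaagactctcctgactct
C1qb (chr4:136886151-136886450, - strand): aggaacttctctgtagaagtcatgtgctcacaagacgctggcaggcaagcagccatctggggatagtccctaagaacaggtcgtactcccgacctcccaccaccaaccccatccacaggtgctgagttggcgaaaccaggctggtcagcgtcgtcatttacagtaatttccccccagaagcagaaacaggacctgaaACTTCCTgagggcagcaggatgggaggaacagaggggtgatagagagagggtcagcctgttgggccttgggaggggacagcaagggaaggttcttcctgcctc
The Epcam window held neither string, Ptprc held AGGAAGT at 2 places, C1qb at 1, and Lyz2 held 1 of each. Other macrophage and monocyte genes that were lower in EpCAM+ cells differed in this. The windows of C1qc and Ctss held AGGAAGT, and those of Fcgr3, Cd68, Apoe and Ccr2 held neither string. AGGAAGT occurred in 4 of 12 pan-leukocyte promoters (33.3%) and 7 of 13 macrophage and monocyte promoters (53.8%) that had a window, and in 1 of 11 promoters of epithelial adhesion and junction genes (9.09%), against 9.57% of all 27025 windows. TGTGGTT occurred in 1 of the 12 and 2 of the 13, against 5.37% of all windows. AACCNGTT, the string bound by the epithelial Grhl factors, occurred in 2 of the 11 epithelial adhesion promoters and 0 of 6 promoters of epithelial regulators and membrane proteases, against 2.01% of all windows. AGGAAGT and TGTGGTT were also in 0 of those 6, and TGTGGTT in 0 of the 11, while AACCNGTT was in 0 of the 12 and 0 of the 13. These matches describe the letters only.

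Across 19703 genes, 35 were called higher in EpCAM+ cells (0.178% of genes tested) and 122 lower (0.619%), 157 in all (0.797%), where called means an adjusted p under 0.05. The fit held the 12 sums of the 4 primary gates, which share an estimate of the spread, and the biological coefficient of variation was 1.163. A fit of the 6 sums of these 2 gates alone called 1 higher, Clu, and 42 lower, and DESeq2 called 1264 higher and 1061 lower. Leaving out mouse 1, 2 or 3 gave 18, 15 or 2 higher and 136, 45 or 10 lower. Without CD45+ cell 30 of mouse 2 the numbers were 93 higher and 168 lower, and 35 of the 35 and 122 of the 122 genes were called again.

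**Figure D1:**
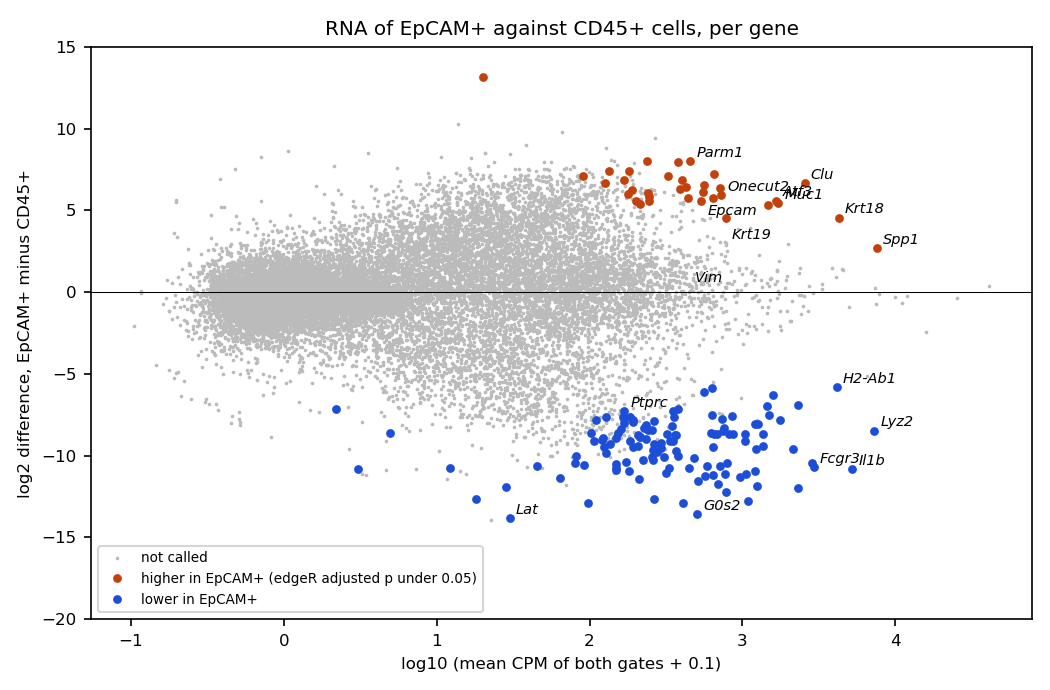
Each point is a gene, with the log10 of its mean CPM over both gates plus 0.1 on the horizontal axis and the edgeR log2 difference, EpCAM+ minus CD45+, on the vertical axis; orange points are the 35 genes called higher, blue points the 122 called lower. Spp1, Krt18 and Clu lie at the high-expression end of the genes called higher, and Lyz2, Il1b and Fcgr3 at that of the genes called lower.

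The genes with the largest differences among those higher in EpCAM+ cells were of mixed roles. Parm1, a mucin-like membrane protein, stood at 164, 2443 and 110.0 CPM in EpCAM+ cells and 3.30, 2.34 and 2.86 CPM in CD45+ cells (log2 difference 8.01, SE 1.61, adjusted p = 0.0120). Sult1c2, a cytosolic sulfotransferase, stood at 1847, 243 and 169 CPM in EpCAM+ cells and 8.43, 1.75 and 1.26 CPM in CD45+ cells (7.97, SE 1.57, adjusted p = 0.0103). Cdkn2b, the cyclin-dependent kinase inhibitor p15, stood at 620, 293 and 174 CPM against 3.45, 1.70 and 1.32 CPM in CD45+ cells (7.41, SE 1.53, adjusted p = 0.0151). In each of these genes the lowest EpCAM+ mouse was far above the highest CD45+ mouse. They were picked for their large differences in the same sums, so nothing is read from that.

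Cdh17, a cadherin of the gastrointestinal epithelium, was higher by 7.11 on the log2 scale, and Steap1, a membrane metalloreductase family protein, by 6.84. Efemp1, an extracellular fibulin, was higher by 6.84, Mtmr11, a myotubularin family member, by 7.40, Cfap20, a protein of cilia, by 7.10, and Las1l, a factor of ribosome biogenesis, by 6.67. Their adjusted p ran from 0.0116 for Steap1 to 0.0477 for Mtmr11. Rbbp9, a serine hydrolase, had the largest difference of the 10, at 8.05 (adjusted p = 0.0376). EpCAM+ cell 3 of mouse 1, a cell whose DNA looked like that of CD45+ cells, held 68.4% of the Rbbp9 counts of its gate, and without the 4 cells that stood apart the difference was 7.01 with an adjusted p of 0.0538.

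Of the keratins 9 of 10 were tested and 1 was called higher, Krt18, with 0 lower and a median log2 difference of 3.91, against a median of -0.094 over all genes. Krt18, the type I keratin of simple epithelium, stood at 4966, 6930 and 12938 CPM in EpCAM+ cells and 67.9, 675 and 41.1 CPM in CD45+ cells (4.56, SE 1.03, adjusted p = 0.0261). Krt8, its type II partner, stood at 1559, 1557 and 2243 CPM in EpCAM+ cells and 13.2, 238 and 10.4 CPM in CD45+ cells, with a difference of 3.87 and an adjusted p of 0.0969. Krt19, the duct keratin, stood at 500, 1891 and 1899 CPM in EpCAM+ cells and 4.50, 352 and 11.2 CPM in CD45+ cells (3.01, adjusted p = 0.230). In these 3 genes mouse 2 was the high one of the CD45+ mice.

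That CD45+ value came from a single cell. CD45+ cell 30 of mouse 2 held 89.1% of the Krt18, 91.9% of the Krt8 and 97.3% of the Krt19 counts of its gate. Without it 6 keratins were called higher, namely Krt7, Krt8, Krt18, Krt19, Krt20 and Krt23, and the median over the 9 was 7.31. Krt8 then differed by 7.31 (adjusted p = 5.62e-04), Krt19 by 7.66 (adjusted p = 0.00275) and Krt20, a keratin of gastrointestinal epithelium, by 6.87 (adjusted p = 0.00476), against 4.44 (adjusted p = 0.0827) with it. Because the cell was picked for its keratin RNA, these values are a description.

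The plot of keratin against pan-leukocyte RNA shows how the cells lay. The summed keratin level per cell ran from 253 to 54758 CPM with a median of 9054 CPM in EpCAM+ cells, and from 2.67 to 28768 CPM with a median of 65 CPM in CD45+ cells. The summed pan-leukocyte level ran from 0.0 to 2507 CPM with a median of 63.7 CPM in EpCAM+ cells, and from 444 to 54645 CPM with a median of 10793 CPM in CD45+ cells. The ranges overlapped on both axes, while 23 of 25 EpCAM+ cells and 6 of 56 CD45+ cells had over 1000 CPM of keratins, and 1 of 25 EpCAM+ cells and 52 of 56 CD45+ cells had over 1000 CPM of pan-leukocyte RNA. That EpCAM+ cell was cell 45 of mouse 3, which also had the most keratin RNA.

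**Figure D2:**
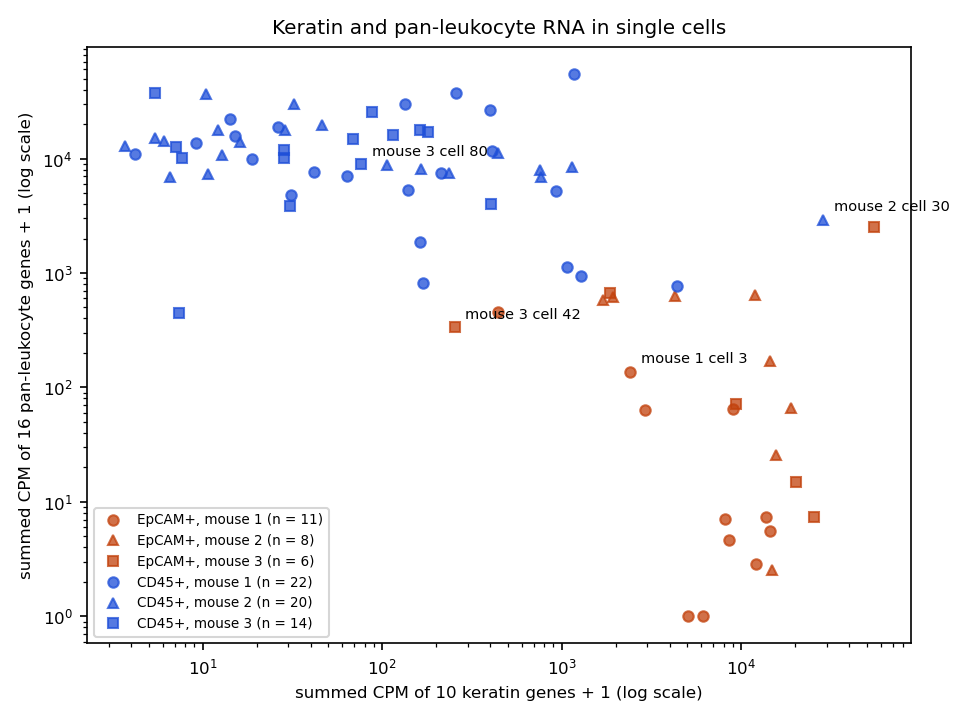
Each point is a kept cell, with the summed CPM plus 1 of the 10 keratin genes on the horizontal log axis and that of the 16 pan-leukocyte genes on the vertical log axis; colour gives the gate and shape the mouse, and the 4 cells that stood apart are named. EpCAM+ cells lie to the lower right and CD45+ cells to the upper left, with CD45+ cell 30 of mouse 2 at 28768 CPM of keratins among the EpCAM+ cells on the right.

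Of 15 epithelial adhesion and junction genes 14 were tested, 0 were called higher and 1 was called lower, with a median log2 difference of 3.64 and 12 positive differences. The summed level of the list was 2439, 3416 and 2066 CPM in EpCAM+ cells and 64.2, 415 and 1110 CPM in CD45+ cells. Per cell the median was 1260 CPM in EpCAM+ cells and 58.3 CPM in CD45+ cells, and 14 of 25 and 8 of 56 cells had over 1000 CPM. For Cdh1, a member of the list, cell 66 of mouse 3 held 75.1% of the CD45+ counts. Without CD45+ cell 30 of mouse 2, which was picked for its keratin RNA, Epcam joined the called genes of the list, as a description.

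Of the 14 epithelial regulators and membrane proteases 13 were tested and 0 were called, with 5 at an unadjusted p under 0.05 in edgeR. Ehf and Elf3, Ets factors of epithelium, stood at 503, 221 and 1348 CPM and at 161, 2138 and 450.0 CPM in EpCAM+ cells, against 12.9, 14 and 6.32 CPM and 4.50, 45.7 and 5.72 CPM in CD45+ cells (5.93 and 5.02, adjusted p = 0.0716 and 0.0718). Without CD45+ cell 30 of mouse 2 both were called (6.81 and 7.33, adjusted p = 0.0369 and 0.00604). As for the keratins, these values are a description, because the cell was picked for its keratin RNA. The median of the list was 0.93, and -0.57 in cells with more RNA counts than DNA reads.

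Mucins and secreted products of epithelium gave 3 of 13 tested genes called higher and 0 lower, with a median of 5.43 and 8 positive differences. In cells with more RNA counts than DNA reads, 2 members of the list were called higher and 1 lower. Clu, the secreted chaperone clusterin, stood at 5740, 8450 and 985 CPM in EpCAM+ cells and 56.2, 40.9 and 33.2 CPM in CD45+ cells (6.67, SE 0.94, adjusted p = 4.13e-04). It was the gene called higher in the fit of the 2 gates alone (adjusted p = 0.0180). Muc1, a membrane mucin of duct and tumour cells, stood at 2461, 5807 and 1830 CPM in EpCAM+ cells and 14.9, 118 and 27.3 CPM in CD45+ cells (5.43, SE 1.09, adjusted p = 0.0116). Muc4, another membrane mucin, stood at 141, 2087 and 1543 CPM against 37.2, 17.6 and 16.4 CPM in CD45+ cells (5.75, SE 1.41, adjusted p = 0.0434). Without EpCAM+ cell 36 of mouse 2, the cell with the largest share of any sum, the adjusted p of Muc4 was 0.107. Tff1, a trefoil peptide of gastric mucus, was at 0.0, 394 and 0.0 CPM in EpCAM+ cells and 0.287, 0.0 and 0.165 CPM in CD45+ cells. Cell 39 of mouse 2 held 98.7% of the Tff1 counts of the EpCAM+ gate.

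Of 16 genes of the pancreatic lineage and the classical tumour type 1 was called higher and 0 lower, with a median of 3.91 and 14 positive differences. Onecut2, a homeobox factor of foregut epithelium, stood at 1994, 1284 and 1002 CPM in EpCAM+ cells and 27.5, 27.5 and 9.84 CPM in CD45+ cells (5.93, SE 1.13, adjusted p = 0.00844). Sox9, the duct and progenitor factor, stood at 214, 519 and 766 CPM in EpCAM+ cells and 2.68, 31 and 8.63 CPM in CD45+ cells (4.68, adjusted p = 0.0862). Ctse, the gastric protease cathepsin E, stood at 1883, 1493 and 1193 CPM against 19.4, 19.8 and 86.7 CPM in CD45+ cells (4.74, adjusted p = 0.0716). Pdx1, the pancreatic master regulator, stood at 16.9, 42.1 and 144 CPM against 1.29, 0.195 and 0.935 CPM in CD45+ cells (6.56, adjusted p = 0.118). The mice of the gates did not overlap in these genes. They were named for the smallest p of their list, so nothing is read from that against the 11.3% of all genes tested without overlap.

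Spp1 was the 1 of 8 pancreatic duct genes called, with 0 lower and a list median of 2.58. Spp1, the secreted phosphoprotein osteopontin, which macrophages also make, stood at 24602, 5565 and 9846 CPM in EpCAM+ cells and 1921, 1049 and 2476 CPM in CD45+ cells (2.69, SE 0.57, adjusted p = 0.0164). It was seen in 25 of 25 EpCAM+ cells, with a median of 4925 CPM per cell, and in 56 of 56 CD45+ cells, with a median of 374 CPM. Cell 58 of mouse 1 held 43.5% of the counts of the EpCAM+ gate. Without EpCAM+ cell 36 of mouse 2, the cell with the largest share of any sum, the difference was 2.52 (adjusted p = 0.0641). Cell 58 of mouse 1 was still in that fit. Cftr, the chloride channel of ducts, ranged from 2.52 to 835 CPM in EpCAM+ cells and from 1.70 to 19.3 CPM in CD45+ cells (4.72, adjusted p = 0.194).

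**Figure D3:**
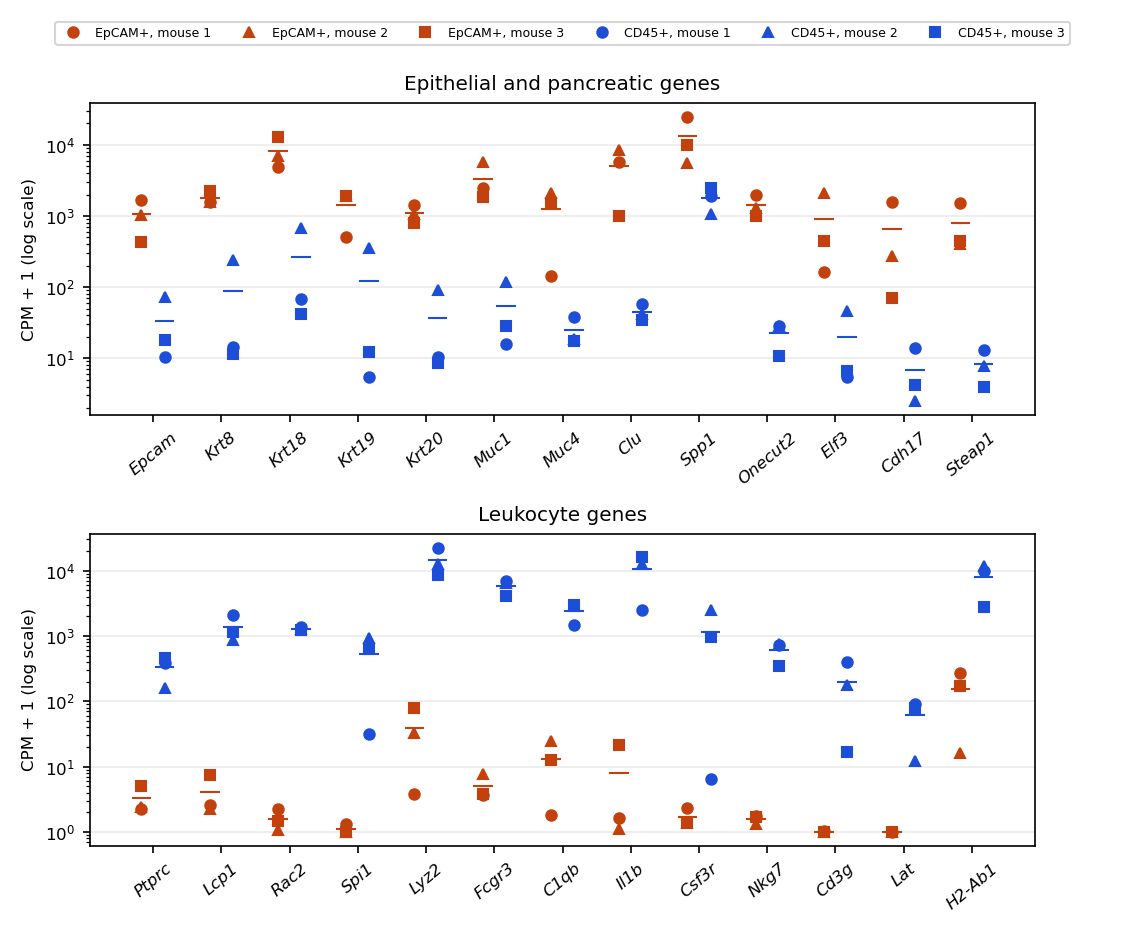
Each point is the CPM plus 1 of a gene in the sum of a mouse, on a log axis, with EpCAM+ left of CD45+ for each gene, shape for the mouse and a bar for the mean of 3 mice. In the upper panel mouse 2 is the highest CD45+ mouse for Epcam, Krt8, Krt18, Krt19, Krt20, Muc1 and Elf3; in the lower panel EpCAM+ values lie below CD45+ values for each gene shown.

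Pan-leukocyte genes were lower in EpCAM+ cells: 11 of 16 were called lower and 0 higher, with a median log2 difference of -8.18. Their summed level was 17.7, 60.9 and 87.2 CPM in EpCAM+ cells and 15574, 14071 and 13213 CPM in CD45+ cells, and 0 members were at 0 in either gate. Rac2, a small GTPase of haematopoietic cells, stood at 1.27, 0.0647 and 0.479 CPM in EpCAM+ cells and 1387, 1273 and 1215 CPM in CD45+ cells (-11.19, SE 2.47, adjusted p = 0.0236). Lcp1, the leukocyte actin bundler plastin, stood at 1.62, 1.23 and 6.47 CPM in EpCAM+ cells and 2105, 868 and 1131 CPM in CD45+ cells (-8.65, SE 1.53, adjusted p = 0.00478). Spi1, the factor PU.1 itself, stood at 0.308, 0.0 and 0.0 CPM in EpCAM+ cells and 30.2, 918 and 640 CPM in CD45+ cells (-12.65, SE 2.92, adjusted p = 0.0308). Cd52, a small glycoprotein of leukocytes, and Fcer1g, the signalling chain of Fc receptors, differed by -8.73 and -8.29 (adjusted p = 0.0200 and 0.0164).

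Macrophage and monocyte genes followed, with 10 of 18 called lower and 0 higher and a median of -7.61. Lyz2, myeloid lysozyme, stood at 2.78, 31.3 and 78.4 CPM in EpCAM+ cells and 22170, 12531 and 8657 CPM in CD45+ cells (-8.47, SE 1.35, adjusted p = 0.00166). Fcgr3, a receptor for immunoglobulin G, stood at 2.74, 6.72 and 2.76 CPM in EpCAM+ cells and 7007, 6489 and 4077 CPM in CD45+ cells (-10.68, SE 1.49, adjusted p = 4.13e-04). C1qb, a chain of complement C1q, stood at 0.848, 24 and 11.6 CPM in EpCAM+ cells and 1457, 2849 and 2952 CPM in CD45+ cells (-8.06, SE 1.53, adjusted p = 0.00844). Cd14, the lipopolysaccharide co-receptor, stood at 57.1, 68.3 and 37 CPM against 1569, 3953 and 3855 CPM in CD45+ cells (-6.30, SE 1.20, adjusted p = 0.00844). The summed macrophage level of the EpCAM+ sums was 97.4, 181 and 257 CPM, which is 0.232%, 0.416% and 0.839% of that of the CD45+ sums, and 7 of 25 EpCAM+ cells had over 1000 CPM of it.

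Of 12 neutrophil genes 10 were tested and 7 were called lower, with 0 higher and a median of -10.37. Il1b, the cytokine interleukin-1 beta, stood at 0.617, 0.129 and 20.5 CPM in EpCAM+ cells and 2499, 12429 and 16302 CPM in CD45+ cells (-10.83, SE 1.91, adjusted p = 0.00478). G0s2, an inhibitor of triglyceride lipolysis, stood at 0.308, 0.0 and 0.0 CPM in EpCAM+ cells and 128, 196 and 2702 CPM in CD45+ cells (-13.56, SE 2.64, adjusted p = 0.00923). Trem1, an amplifying receptor of myeloid cells, and Hdc, the histamine-forming enzyme, differed by -10.13 and -10.61 (adjusted p = 0.00334 and 0.00658). Csf3r, the receptor for G-CSF, stood at 1.35, 0.388 and 0.359 CPM in EpCAM+ cells and 5.46, 2472 and 946 CPM in CD45+ cells (-11.23, adjusted p = 0.00500), and cell 27 of mouse 2 held 69.3% of the CD45+ counts.

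Among lymphocyte genes of T and natural killer cells 15 of 16 were tested and 6 called lower, with 0 higher and a median of -7.94. Nkg7, a granule protein of cytotoxic cells, stood at 0.771, 0.323 and 0.719 CPM in EpCAM+ cells and 722, 761 and 352 CPM in CD45+ cells (-10.08, SE 1.92, adjusted p = 0.00844). Cd3g, a chain of the T cell receptor complex, stood at 0.0386, 0.0 and 0.0 CPM in EpCAM+ cells, which is 1 count in all, and 397, 176 and 15.8 CPM in CD45+ cells (adjusted p = 0.0151). Lat, the adaptor below that receptor, had 0 counts in EpCAM+ cells and 89.2, 11.1 and 79.2 CPM in CD45+ cells. Summed over mice it was at least 819-fold lower in EpCAM+ cells, with a floor of 3 counts over the gate (adjusted p = 0.0292). Cd2 and Lck, an adhesion receptor and a kinase of T cells, differed by -10.04 and -8.89 (adjusted p = 0.0305 and 0.0311), and Cd2 was at 0.111 CPM in CD45+ cells of mouse 2 against 1.29 CPM in EpCAM+ cells of that mouse.

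B and plasma cell genes gave 0 of 7 tested called in either direction, dendritic cell genes 0 of 10, mast cell and basophil genes 0 of 5 and erythroid genes 0 of 3, with 3, 4, 1 and 1 at an unadjusted p under 0.05 in edgeR. Cd79b, a chain of the B cell receptor, was at 0.964, 1.49 and 0.839 CPM in EpCAM+ cells and 1105, 1.23 and 0.0550 CPM in CD45+ cells, so it was high in CD45+ cells of mouse 1. Ccr7, the receptor that leads dendritic cells to lymph nodes, was at 1.08, 1.62 and 0.359 CPM in EpCAM+ cells and 1.48, 0.446 and 1761 CPM in CD45+ cells, with 99.0% of the CD45+ counts in cell 81 of mouse 3. Of 8 platelet and megakaryocyte genes 4 were tested and 1, Ppbp, was called lower. Ppbp, a platelet chemokine, was at 0.231, 0.259 and 0.959 CPM in EpCAM+ cells and 1.96, 0.167 and 4685 CPM in CD45+ cells (-12.19, adjusted p = 0.0202), and cell 73 of mouse 3 held 99.9% of its CD45+ counts. These values rest on few CD45+ cells.

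Genes that present antigen were read by class, with 0 positive differences in either class, and the difference between the classes was not tested. Of 8 MHC class II genes 3 were called lower in EpCAM+ cells and 0 higher, with a median of -6.51. H2-Ab1 stood at 271, 15.0 and 169 CPM in EpCAM+ cells and 9695, 11845 and 2786 CPM in CD45+ cells (-5.82, SE 1.33, adjusted p = 0.0292). H2-Aa and H2-Eb1 differed by -6.88 and -7.52 (adjusted p = 0.00923 and 0.00755). The summed class II level was 1622, 50.8 and 219 CPM in EpCAM+ cells, highest in mouse 1, and 34549, 39610 and 15005 CPM in CD45+ cells. Of 11 MHC class I genes 0 were called in either direction, with 4 at an unadjusted p under 0.05 in edgeR and a median of -1.39. The summed class I level was 14147, 3115 and 11507 CPM in EpCAM+ cells and 15987, 15183 and 10842 CPM in CD45+ cells. In mouse 3 it was thus higher in EpCAM+ cells. H2-D1, a classical class I heavy chain, stood at 313, 725 and 1109 CPM in EpCAM+ cells and 1661, 3550 and 3392 CPM in CD45+ cells (-2.33, adjusted p = 0.216), and H2-K1 at 1021, 575 and 31 CPM against 1423, 2187 and 2131 CPM in CD45+ cells (-2.22, adjusted p = 0.280). Class I genes share near-identical stretches, so how reads were divided among them is uncertain.

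Of 19 chemokine and cytokine genes 6 were called lower and 0 higher, with a median of -4.67 and 4 positive differences. Their summed level was 2347, 1021 and 1142 CPM in EpCAM+ cells and 13507, 11492 and 13955 CPM in CD45+ cells. Ccl3, a macrophage inflammatory chemokine, stood at 0.501, 4.07 and 9.47 CPM in EpCAM+ cells and 2041, 3043 and 3040 CPM in CD45+ cells (-9.40, SE 1.48, adjusted p = 0.00166). Cxcl3, a ligand that attracts neutrophils, differed by -12.88 (adjusted p = 0.00263), and Osm, the cytokine oncostatin M, by -11.73 (adjusted p = 0.00166). With the CD45+ cell picked for its keratin RNA left out, 6 members were called lower and 1 higher, and Cxcl5 joined the called genes. The values without that cell are a description. Among Fc and complement receptors 6 of 11 were called lower and 0 higher, with a median of -7.74. C5ar1, the receptor of complement C5a, stood at 1.70, 0.841 and 2.64 CPM in EpCAM+ cells and 323, 3511 and 3436 CPM in CD45+ cells (-10.93, SE 1.84, adjusted p = 0.00263), and Itgb2, the beta chain of leukocyte integrins, fell by 8.74 (adjusted p = 0.0164).

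3 more receptors were among the genes with the largest differences. Lilrb4a, an inhibitory receptor of myeloid cells, stood at 0.540, 0.841 and 0.959 CPM in EpCAM+ cells and 2509, 1948 and 3048 CPM in CD45+ cells (-11.86, SE 1.61, adjusted p = 4.13e-04). Il1r2, the decoy receptor of interleukin-1, stood at 0.848, 0.0647 and 3.24 CPM in EpCAM+ cells and 2261, 4652 and 6871 CPM in CD45+ cells (-11.98, SE 1.74, adjusted p = 5.73e-04). Ccrl2, an atypical chemokine receptor, stood at 0.771, 0.0 and 0.359 CPM in EpCAM+ cells and 1289, 3590 and 1672 CPM in CD45+ cells (-12.80, SE 2.14, adjusted p = 0.00263). Hcls1, a cortactin-like protein of blood cells, was at 1 count in all in EpCAM+ cells and at 10.7, 106 and 53.1 CPM in CD45+ cells (adjusted p = 0.0322).

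Few genes of other programmes were called. Of 13 mesenchymal transition genes 1 was called lower and 0 higher, with a median of -0.04. Tgfbi, a matrix protein induced by TGF-beta that macrophages also make, stood at 1.58, 3.43 and 0.359 CPM in EpCAM+ cells and 272, 1264 and 488 CPM in CD45+ cells (-9.10, SE 1.82, adjusted p = 0.0116). Vim, the mesenchymal filament protein vimentin that leukocytes also carry, stood at 280, 397 and 941 CPM in EpCAM+ cells and 259, 381 and 406 CPM in CD45+ cells (0.39, SE 0.99, adjusted p = 0.952), and its groups overlapped. Zeb1, a repressor of epithelial genes, ranged from 3.28 to 424 CPM in EpCAM+ cells and from 1.03 to 7.28 CPM in CD45+ cells (6.13, adjusted p = 0.112), and Axl, a receptor kinase, from 2.70 to 14.3 CPM in EpCAM+ cells and from 122 to 462 CPM in CD45+ cells (-5.61, adjusted p = 0.117).

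Of 14 immediate early genes 1 was called higher, with 0 lower and a median of -0.19. Atf3, a stress-induced factor, stood at 434, 5053 and 4220 CPM in EpCAM+ cells and 200.0, 56.3 and 10.2 CPM in CD45+ cells (5.61, SE 1.14, adjusted p = 0.0126), and cell 51 of mouse 3 held 57.7% of the EpCAM+ counts. Fos stood at 3191, 9514 and 4285 CPM in EpCAM+ cells and 3306, 1025 and 1843 CPM in CD45+ cells (1.46, adjusted p = 0.308). Of 18 proliferation genes, 13 unfolded protein response genes, 14 hypoxia and glycolysis genes, 16 oxidative phosphorylation genes, 18 ribosomal protein genes and 15 interferon genes 0 were called in edgeR, with 4, 1, 1, 0, 0 and 5 at an unadjusted p under 0.05. Cdc20, an activator of the anaphase-promoting complex, stood at 21.7, 237 and 198 CPM in EpCAM+ cells and 0.814, 3.17 and 0.550 CPM in CD45+ cells (6.26, adjusted p = 0.106). Hspa5, the chaperone BiP of the endoplasmic reticulum, stood at 8189, 5591 and 5958 CPM in EpCAM+ cells and 3250, 2294 and 1630 CPM in CD45+ cells (1.40, adjusted p = 0.266).

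Markers of the other cells that the gates could hold were also measured. Of 20 acinar genes 8 were tested, of 10 islet genes 3, of 16 fibroblast and stellate genes 16, of 10 endothelial genes 9 and of 6 mesothelial genes 6, and 0 were called, with 3, 0, 1, 0 and 1 at an unadjusted p under 0.05 in edgeR. The summed fibroblast level was 677, 661 and 402 CPM in EpCAM+ cells and 1068, 669 and 329 CPM in CD45+ cells. The summed endothelial level stayed between 11.3 and 17.3 CPM in EpCAM+ mice and between 11 and 48.5 CPM in CD45+ mice. Acinar RNA was carried by single cells: cell 50 of mouse 3 held 98.0% of the EpCAM+ counts of Clps, pancreatic colipase, and cell 31 of mouse 2 held 99.1% of the CD45+ counts of Amy2a5, pancreatic amylase. Msln, mesothelin, which mesothelium and pancreatic tumour cells make, stood at 175, 757 and 201 CPM in EpCAM+ cells and 1.01, 3.40 and 2.47 CPM in CD45+ cells (6.85, adjusted p = 0.0937). The part of these cells in the results was not tested.

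DNA coverage was compared in cells with at least 50000 DNA reads, 22 EpCAM+ cells (10, 6 and 6 in mice 1, 2 and 3) and 53 CD45+ cells (22, 18 and 13). The median depth was 844380 reads per EpCAM+ cell and 898867 per CD45+ cell, over 4730 autosomal bins. The coverage of an autosome is the log2 of its mean reads per bin over that of all autosomal bins, averaged over the cells of a mouse and tested over mice with limma. Because it is relative, a gain of some autosomes lowers all others.

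EpCAM+ cells had higher coverage than CD45+ cells on 3 of 19 autosomes (15.8%) and lower coverage on 7 (36.8%), 10 in all (52.6%). Chromosome 3 stood at 0.33, 0.30 and 0.40 in EpCAM+ cells of mice 1, 2 and 3 and at -0.01, -0.13 and -0.02 in CD45+ cells (log2 difference 0.40, SE 0.07, adjusted p = 5.9e-04). Chromosome 2 stood at 0.34, 0.18 and 0.36 in EpCAM+ cells and -0.01, 0.07 and 0.13 in CD45+ cells (0.23, SE 0.07, adjusted p = 0.00946), and chromosome 5 at 0.28, 0.16 and 0.08 in EpCAM+ cells and -0.03, -0.01 and 0.01 in CD45+ cells (0.19, SE 0.06, adjusted p = 0.0135). In these 3 chromosomes every EpCAM+ mouse lay above every CD45+ mouse. They were picked by the test on the same mouse values, so nothing is read from that. The chromosome 5 values include a run of 19 highly covered bins at its start, described below. Outside that run the median coverage per cell, relative to the autosomal mean, was 1.08, 1.06 and 0.931 in EpCAM+ cells. It was 0.974, 0.986 and 0.996 in CD45+ cells of mice 1, 2 and 3, so EpCAM+ cells were the lower ones in mouse 3.

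Chromosome 4 had the lowest relative coverage, at -0.45, -0.43 and -0.28 in EpCAM+ cells and 0.01, -0.10 and -0.05 in CD45+ cells (-0.34, SE 0.06, adjusted p = 5.8e-04). Chromosome 10 stood at -0.52, -0.24 and -0.34 in EpCAM+ cells and -0.05, -0.04 and -0.08 in CD45+ cells (-0.31, SE 0.06, adjusted p = 0.00102). Chromosome 9 stood at -0.32, -0.31 and -0.27 in EpCAM+ cells and 0.07, -0.02 and -0.02 in CD45+ cells (-0.31, SE 0.06, adjusted p = 6.7e-04). Chromosomes 7, 13, 14 and 12 were lower by -0.30, -0.25, -0.23 and -0.22 (adjusted p = 0.0014, 0.00112, 0.00292 and 0.00946). The ratio of EpCAM+ to CD45+ coverage was 1.32 on chromosome 3 and 0.789 on chromosome 4, the ends of the range over autosomes.

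The other 9 autosomes were not called, and several differed between mice. Chromosome 16 stood at 0.22, -0.26 and -0.14 in EpCAM+ cells of mice 1, 2 and 3 and at -0.08, -0.04 and 0.04 in CD45+ cells (-0.03, SE 0.10, adjusted p = 0.805). Chromosome 18 stood at 0.13, 0.20 and -0.14 in EpCAM+ cells and 0.03, 0.04 and -0.08 in CD45+ cells (0.06, adjusted p = 0.666), and chromosome 17 at 0.16, 0.29 and -0.04 in EpCAM+ cells and -0.03, 0.05 and 0.01 in CD45+ cells (0.13, adjusted p = 0.168). Without mouse 1 chromosomes 2, 5, 12 and 14 were no longer called, without mouse 2 chromosomes 5, 12 and 14 were not, and without mouse 3 chromosome 17 was called higher (0.22, adjusted p = 0.0226). Scaled to the median bin of a cell in place of the mean, all 19 differences moved up by 0.0947 or 0.0948, their median SE was 0.21 in place of 0.07, and limma called 0 autosomes in either direction.

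Single bins were tested in the same way. Of 4730 autosomal bins 24 were called higher in EpCAM+ cells (0.507%) and 21 lower (0.444%), and 19 of the 24 were adjacent bins at the start of chromosome 5, from position 1 to 14159645. The positions are those of the authors' file, for which no build is named; mm9 is the mouse build in the submitters' processing notes. Without mice 1, 2 and 3 in turn 7, 0 and 1 bins were called higher and 33, 4 and 1 lower. The log2 difference of the 19 bins ran from 1.01 to 1.56 (adjusted p 0.00441 to 0.0472). Their mean relative coverage was 2.60, 2.30 and 3.02 in EpCAM+ cells of mice 1, 2 and 3 and 0.990, 1.06 and 1.13 in CD45+ cells, where 1 is the mean of all autosomal bins.

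That run was covered over 1.5 times the autosomal mean in 19 of 22 EpCAM+ cells and 4 of 53 CD45+ cells, as a description of bins picked by the test. The median per cell was 2.87 in EpCAM+ cells and 0.978 in CD45+ cells, while the rest of chromosome 5 had medians of 1.06 and 0.979. 2 of the 3 EpCAM+ cells below 1.5 were the cells with DNA like that of CD45+ cells. CD45+ cell 80 of mouse 3 had a value of 3.89, the highest of its gate, and CD45+ cell 30 of mouse 2 had 1.43. The other CD45+ cells over 1.5 were cells 33, 17 and 32 of mouse 2, at 2.25, 1.59 and 1.56. In the other gates of the primary tumour the run stood over 1.5 in 62 of 63 GFP+ cells and 27 of 27 GFP+EpCAM+ cells. Steap1, among the genes with the largest RNA differences, is on chromosome 5, but its place in the run was not looked up because the annotation at hand is of another build. The 21 lower bins lay singly, with 0 adjacent pairs, over 12 chromosomes, with log2 differences from -2.78 to -0.90.

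**Figure D4:**
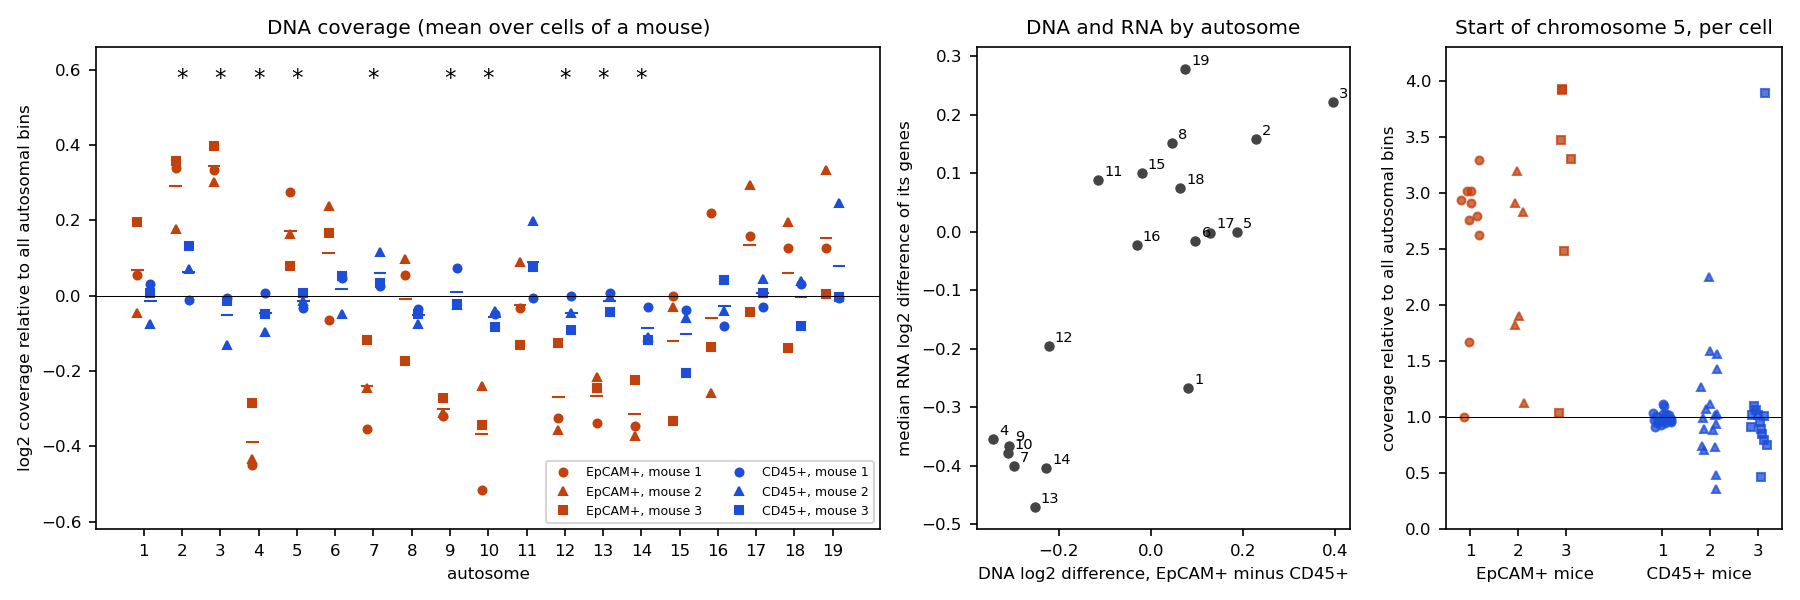
Left, log2 coverage of each autosome relative to all autosomal bins, with a point per mouse, EpCAM+ left of CD45+ and a bar for the mean of 3 mice, and an asterisk over the 10 autosomes called. Middle, the DNA log2 difference of each autosome against the median RNA log2 difference of its genes, with chromosome numbers; right, the relative coverage of the first 19 bins of chromosome 5 per cell, with medians of 2.87 in EpCAM+ cells and 0.978 in CD45+ cells.

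RNA was set beside DNA by chromosome. The median RNA log2 difference of the genes of an autosome ran from -0.47 on chromosome 13 to 0.28 on chromosome 19. Over the 19 autosomes it went with the DNA difference at r = 0.811 over all 18928 autosomal genes tested. Over the 6966 genes with a mean of at least 10 CPM r was 0.870. With RNA from only the cells with more RNA counts than DNA reads, set against the same DNA difference, r was 0.739. RNA and DNA values come from largely overlapping sets of cells and may partly share reads, since genomic reads may reach the RNA file. The RNA sums weight cells by their counts, while the coverage weights cells alike. These are descriptions over chromosomes. Chromosome 3, with the highest DNA difference, had a median RNA difference of 0.22, and chromosome 4, with the lowest, had -0.35. Chromosome 1 departed from the order, with 0.08 in DNA and -0.27 in RNA.

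Cell by cell, EpCAM+ cells had uneven coverage. The SD over autosomes of a cell's log2 coverage, relative to CD45+ cells, had a median of 0.327 (0.0496 to 0.792) in EpCAM+ cells and 0.0849 (0.0398 to 0.598) in CD45+ cells. The correlation over autosomes of a cell's profile with the mean profile of the GFP+EpCAM+ gate had a median of 0.705 (-0.093 to 0.889) in EpCAM+ cells and -0.0988 (-0.613 to 0.683) in CD45+ cells. Both ranges overlapped. EpCAM+ cell 3 of mouse 1 and cell 42 of mouse 3 had SDs of 0.0496 and 0.0688 and correlations of -0.0553 and -0.093, and CD45+ cell 80 of mouse 3 had 0.371 and 0.683. CD45+ cell 33 of mouse 2, which is not among the 4, had 0.179 and 0.429, the highest correlation of the CD45+ cells of its mouse. Without the 4 cells that stood apart 3 autosomes were called higher and 7 lower, as with them.

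**Figure D5:**
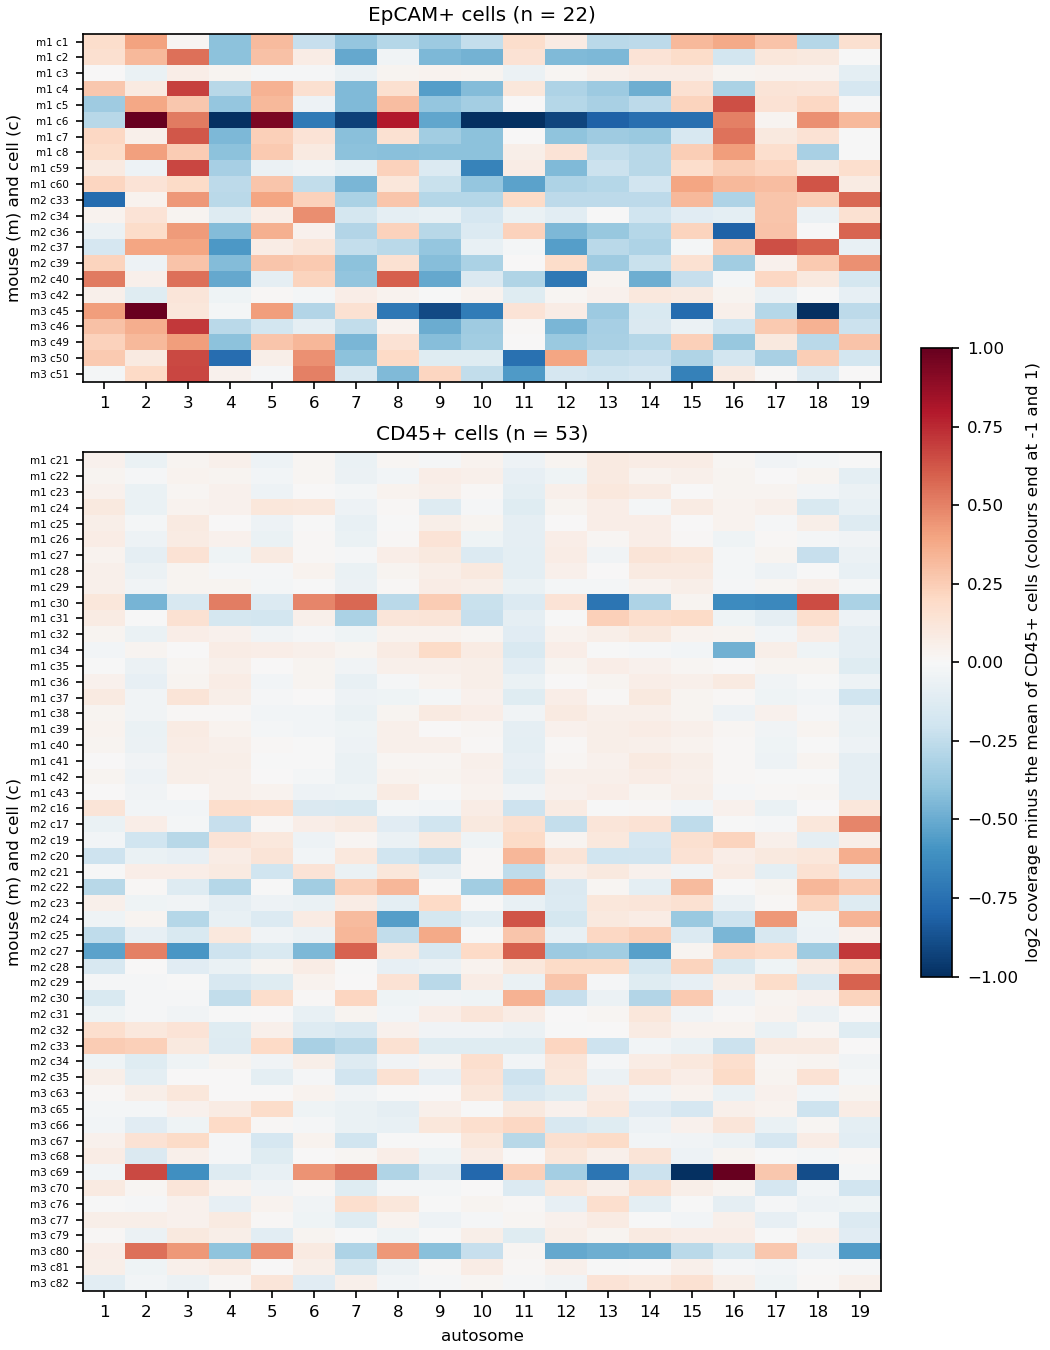
Rows are cells, EpCAM+ above CD45+, columns are autosomes, and colour is the log2 coverage minus the mean of CD45+ cells, with colours ending at -1 and 1. Most EpCAM+ rows share red on chromosome 3 and blue on chromosomes 4, 7, 9 and 10, while EpCAM+ cell 3 of mouse 1 and cell 42 of mouse 3 are pale and CD45+ cell 80 of mouse 3 is patterned.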

How the data were processed

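RNA and DNA of single cells were read with GTO from 3 mice. Per the labels' protocols, complementary DNA was amplified for 15 cycles and reads were 76 bases long. The authors deposited expected counts per gene, 97.4% of them whole, and raw counts in 5000 genomic bins. The submitters' processing notes name STAR, kallisto, Bowtie 1.0 and mm9, with the role of each not given in the sources used here. Of 24520 RNA rows, 92 spike-in rows and 4 rows whose symbol occurs more than once were not used. Within a gate and mouse 537 pairs of libraries were compared, and the lowest chi-square per degree of freedom was 2.40, so none was counted as a duplicate.

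The sums of each gate within a mouse were rounded. Low genes were removed by filterByExpr and TMM factors were applied. A quasi-likelihood fit of the 4 primary gates in edgeR 4.0.16 gave p-values, adjusted by Benjamini-Hochberg and called at 0.05. Coverage was tested with limma 3.58.1 over mice, after a log2 of relative coverage plus 0.1 for bins. Alternatives were DESeq2 1.42.0, other scalings, filters, pseudocounts and thinning, limma on log2 CPM averaged over cells with a pseudocount of 1 or 0.1, both gates fitted alone, a mouse block and leaving out a mouse. Alternatives that leave out cells with fewer RNA counts than DNA reads, the 4 cells that stood apart or CD45+ cell 30 of mouse 2 were chosen after seeing the data. Mouse numbers in the labels mark the same animal, so they pair the sums. Deviations from the gate means correlated at 0.0339, 0.113 and 0.125 within a mouse and at -0.111 to 0.0038 between mice. All mice received the same line, so p-values measure the spread between mouse values. That spread holds both the animals and the few cells sampled from each, and the main fits had no term for the mouse.

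The members and the 34 gene lists were chosen with earlier results of these data known. Named genes are Epcam, Ptprc, Krt19 and Vim, up to 10 called genes a direction with the largest log2 difference among those with a mean of at least 10 CPM and the same direction in 3 of 3 mice, without predicted and Y-linked genes, and up to 4 genes a list with the smallest p. Symbols matched RefSeq for 19613 of 19703 genes tested. The floor of 3 counts covers counting error only, since amplified reads are not independent molecules. The values of 1 gene called lower among the epithelial adhesion genes are not reported here.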

Additional observations from a re-analysis of the deposited data

Results flagged for a closer look

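Each flag below is a single cell whose value lay outside Dixon's limit for the EpCAM+ cells of its mouse, or a coverage that no comparison above used. Of 12 sets of EpCAM+ cells (4 measures in 3 mice) 4 held such a cell, where chance gives about 1 in 20. In mouse 1 cell 6 had an SD over autosomes of 0.792, against a next value of 0.340 among 10 cells, with 124825 DNA reads. Cell 3 of mouse 1 had a correlation with the GFP+EpCAM+ profile of -0.0553, the next lowest being 0.605. Cell 59 of mouse 1 had relative Y coverage of 2.64 from 143 reads in the 3 Y bins, the next highest being 0.731. In mouse 2 cell 34 had a correlation of 0.430 among 6 cells, the next lowest being 0.668, with 50522 DNA reads, close to the limit of 50000.

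X chromosome coverage relative to autosomes averaged 0.619 in EpCAM+ cells of mouse 1 and 0.553 in those of mouse 3, above the highest CD45+ mouse mean of 0.505. It averaged 0.443 in EpCAM+ cells of mouse 2, below the CD45+ means of 0.499, 0.497 and 0.505 in mice 1, 2 and 3, and the difference between mice was not tested. Relative Y coverage was under 0.1 in 7 of 22 EpCAM+ cells and 2 of 53 CD45+ cells.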

How the results depend on the processing

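Set against 35 higher and 122 lower genes, the numbers were 1264 and 1061 with DESeq2, 76 and 189 with library totals without TMM, 1 and 42 in the fit of both gates alone, and 4 and 70 in that fit with the mouse as a block. With the mouse block in the fit of 4 gates they were 40 and 114. Limma called 182 higher on log2(CPM + 1) and 430 on log2(CPM + 0.1). Without EpCAM+ cell 36 of mouse 2, the cell with the largest share of any sum, 191 were lower. Alternatives chosen after seeing the data gave 93 higher without CD45+ cell 30 of mouse 2 and 112 without the 4 cells that stood apart. Leaving out a mouse gave 2 to 18 higher and 10 to 136 lower. The median over all genes was -0.09, and -0.29 with DESeq2, -0.23 without TMM and 0.12 on log2(CPM + 0.1).

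Of 3 higher and 7 lower autosomes, 0 and 0 were called when scaled to the median bin. Leaving out a mouse gave 1 to 4 higher and 5 to 7 lower, and the mouse block changed no autosome call. Set against 24 higher and 21 lower bins, the fit of both gates alone called 8 and 4, and scaling to the median bin 6 and 1. Fewer lower bins were called with 200000 reads (11), every cell (13), a pseudocount of 0.5 (12) and summed reads (7). Leaving out a mouse gave 0 to 7 higher and 1 to 33 lower. The cause was not tested.

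Some differences that had not passed the test turned sign. Vim was -0.87 after thinning. Clps was -2.32 in cells with more RNA counts than DNA reads. Leaving out a mouse gave -0.17 to 0.87 for Vim, -5.52 to 11.09 for Tff1, -10.77 to 0.30 for Itga2b (a platelet integrin chain, -9.34 with all mice), -10.78 to 0.81 for Ccr7, -8.17 to 0.19 for Cd79b and -0.79 to 8.08 for Clps. It gave -0.0188 to 0.13 for chromosome 8 coverage, -0.0491 to 0.0334 for chromosome 15 coverage and -0.197 to 0.0623 for chromosome 16 coverage. The chromosome 15 coverage was 0.0159 with 200000 reads, 0.0104 with every cell, 0.0847 with summed reads and 0.0745 scaled to the median bin, where chromosome 16 coverage was 0.0637.

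Medians that changed sign under some alternative were those of epithelial regulators, acinar, islet, mesothelial, mast cell, interferon, immediate early, hypoxia, oxidative phosphorylation, integrin and laminin, mesenchymal transition, and tumour genotype and p53 target genes. Possible genomic reads in the RNA values limit what low genes can show.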

Other observations

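Integrins and laminins of epithelium, which anchor cells to the basement membrane, gave 0 of 13 genes called, with 5 at an unadjusted p under 0.05 in edgeR. Their median log2 difference was 1.60, and -0.58 in cells thinned to 10000 counts. Itga6, the alpha chain of the hemidesmosome integrin, stood at 571, 169 and 9.47 CPM in EpCAM+ cells and 10.4, 11 and 9.24 CPM in CD45+ cells (log2 difference 4.34, adjusted p = 0.169). The EpCAM+ value of mouse 3 lay within the CD45+ range, so the mice of the gates overlapped.

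Tumour genotype and p53 target genes gave 0 of 10 genes called, with 3 at an unadjusted p under 0.05 in edgeR and a median of 0.67, which was -0.46 after the same thinning. Smad4, a mediator of TGF-beta signalling, stood at 200.4, 29.1 and 8.15 CPM in EpCAM+ cells and 6.56, 8.55 and 1.98 CPM in CD45+ cells (3.60, adjusted p = 0.291). Myc, a growth-promoting transcription factor, stood at 3.01, 287 and 1172 CPM in EpCAM+ cells and 110.4, 37.1 and 86.6 CPM in CD45+ cells (2.74, adjusted p = 0.367), so the EpCAM+ mice lay on both sides of the CD45+ mice.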
